A study of Gallus gallus with 24 samples.

Results

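Cholesterol is built from acetyl groups by a chain of enzymes that runs through HMG-CoA, mevalonate, farnesyl diphosphate and squalene to lanosterol, and then through a series of sterol steps. In vertebrates the genes of this chain are switched on together by the transcription factor SREBP2, which SCAP carries out of the endoplasmic reticulum when membrane sterol is low. INSIG1 holds SCAP and SREBP2 back when sterol is plentiful, and its own gene is a target of SREBP2. The chick embryo takes much of its cholesterol from yolk, and the liver, intestine and brain can also make their own.

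The account below follows 8 genes of this pathway in broiler chicks: the enzymes HMGCS1, FDPS, SQLE, LSS, CYP51A1, NSDHL and DHCR7, and the regulator INSIG1. They were taken as every probe set whose only gene symbol in the array annotation is that of a gene on this list, which gave 14 of the 38535 probe sets on the array and 8 of 13009 named genes. The list was chosen by measured values, since it was drawn up with the changes of these genes between hatch and day 7 known. Their age changes are therefore given as description, with no p-value, and nothing is supported with them. Tests are given for tissue differences averaged over both ages, which the fit estimates apart from the age change, and for pathway genes outside the 8. Results of these data were known when the list was drawn up, so these p-values do not support the choice of genes. Where a gene had several probe sets, the brightest over all arrays was used. The others are mentioned for the 8 genes, and for only some of the genes outside them. Of the 14 probe sets, 7 carry a suffix that marks probes shared by several transcripts.

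RNA was measured at 7 days of age and at hatch (day 0) in 4 tissues: breast muscle, duodenum, liver and whole brain. This gave 8 groups. All chicks were Ross broilers, a strain bred for meat, labelled male, and the labels give no treatment and no feeding state. Each group had 3 arrays, each hybridised with pooled RNA from 4 to 5 chicks, so the spread within a group is between pools and not between chicks. Whether the 3 pools of a group came from different chicks is not given in the labels. Signals are MAS5 intensities on a linear scale, and changes are day 7 minus day 0 on the log2(signal + 28.36) scale. On this scale changes at dim signals come out too small. Each ± after a change is its standard error from a fit over all 24 arrays, while a signal carries the SD over its 3 pools. A probe set was called when its Benjamini-Hochberg adjusted p in the limma fit was under 0.05.

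The tissues carried the markers of their labels. The summed signal of 5 hepatocyte markers was 240700 to 385194 on the liver arrays, that of 6 neuron markers 97227 to 111375 on the brain arrays, and that of 5 muscle fibre markers 225862 to 369021 on the breast muscle arrays. The sum of 6 enterocyte markers was 76268 to 175441 on the duodenum arrays, which also carried 26425 to 84853 of 4 exocrine pancreas markers. The 5 hepatocyte markers summed to 27002 to 137720 on the duodenum arrays at day 7, with a median of 42151. At day 0 they summed to 30756 to 48245 there. In duodenum 1 of these 5 was called higher at day 7 and 1 lower. No array pair held identical values, and r between pools within a group was 0.915 to 0.978 over the probe sets. Added control transcripts averaged 36445 on the array of duodenum day 7 pool 1 and 21687 on that of duodenum day 0 pool 2. The rest of the arrays had 4857 to 11945. The log2 ratio of 5′ to 3′ signal over 3 control genes was -1.07 for brain day 7 pool 3 and -1.49 for brain day 0 pool 1, and -0.89 to -0.66 for the remaining brain arrays.

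Markers of blood and immune cells moved with age beside the results below. In liver, 3 of 3 macrophage markers were called higher at day 7, with summed signals of 35668 to 43053 at day 7 and 8705 to 8934 at day 0, as were 3 of 4 T cell markers (1545 to 1978 at day 7, 272 to 339 at day 0). In duodenum the macrophage sum was 23392 to 41226 at day 7 and 5080 to 6762 at day 0, again with 3 of 3 called, and the T cell sum was 11692 to 15199 at day 7 and 854 to 951 at day 0. Red blood cell markers were called higher at day 7 in 3 of 4 cases in liver, brain and duodenum and in 2 of 4 in breast muscle. Macrophage markers were also called higher in 2 of 3 cases in breast muscle (sums of 6238 to 6734 at day 7, 4223 to 5159 at day 0) and in 1 of 3 in brain.

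Other markers fell. In breast muscle 2 of 4 fat cell markers were called lower, with sums of 6353 to 7439 at day 7 and 12178 to 14306 at day 0, as were 2 of 3 endothelium markers (8363 to 9151 at day 7, 12539 to 13802 at day 0), 2 of 4 myelin markers (2391 to 2530 at day 7, 10087 to 11462 at day 0) and 2 of 5 hepatocyte markers (7022 to 8102 at day 7, 39731 to 42616 at day 0). In duodenum 3 of 6 neuron markers were called lower (1165 to 1351 at day 7, 3154 to 4155 at day 0), as were 2 of the 3 tested exocrine pancreas markers (26425 to 35676 at day 7, 39897 to 84853 at day 0) and 2 of 4 fat cell markers (2338 to 3205 at day 7, 4269 to 7862 at day 0), while 2 of 3 goblet cell markers were called higher (38796 to 79191 at day 7, 16826 to 23475 at day 0). In liver 1 of 4 fat cell markers was called lower. The hepatocyte list had 0 of 5 genes called in liver and the neuron list 0 of 6 in brain, while 4 of 6 enterocyte markers were called higher in duodenum and 1 of 5 muscle fibre markers in breast muscle. The part of these cell types in the results was not tested, and in whole tissue more cells of a type and more RNA per cell cannot be told apart.

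Between day 0 and day 7 the 8 genes were higher by a median log2 change of 3.59 in liver, 2.32 in duodenum and 2.26 in breast muscle, but 0.30 in brain. These medians include CYP51A1, which was below the signal filter and not tested. The medians over all 11444 genes tested were -0.01 in liver, -0.12 in duodenum, -0.02 in breast muscle and 0.00 in brain. In liver 6 of the 8 were called higher at day 7 (5.33% of all probe sets tested were), in duodenum 7 of 8 (9%), in breast muscle 7 of 8 (11.9%) and in brain 1 of 8 (0.132%). None of the 8 was called lower, beside 6.15% of all probe sets in liver, 14.1% in duodenum, 15.5% in breast muscle and 0.101% in brain. With 1 probe set per gene, 728 of the 11444 genes were called higher in liver, 1203 in duodenum, 1735 in breast muscle and 22 in brain. Called lower were 1027 in liver, 2194 in duodenum, 2081 in breast muscle and 12 in brain. Every day 7 pool lay above every day 0 pool for 7 of the 8 genes in liver (17.7% of all probe sets), 7 in duodenum (13.6%), 7 in breast muscle (21.4%) and 4 in brain (7.11%). Of the 8 genes 7, with 12 of the 14 probe sets, reached the signal filter in at least 1 group, and the exception was CYP51A1. Since age changes chose the list, these counts describe it and are not evidence about it.

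**Figure D1:**
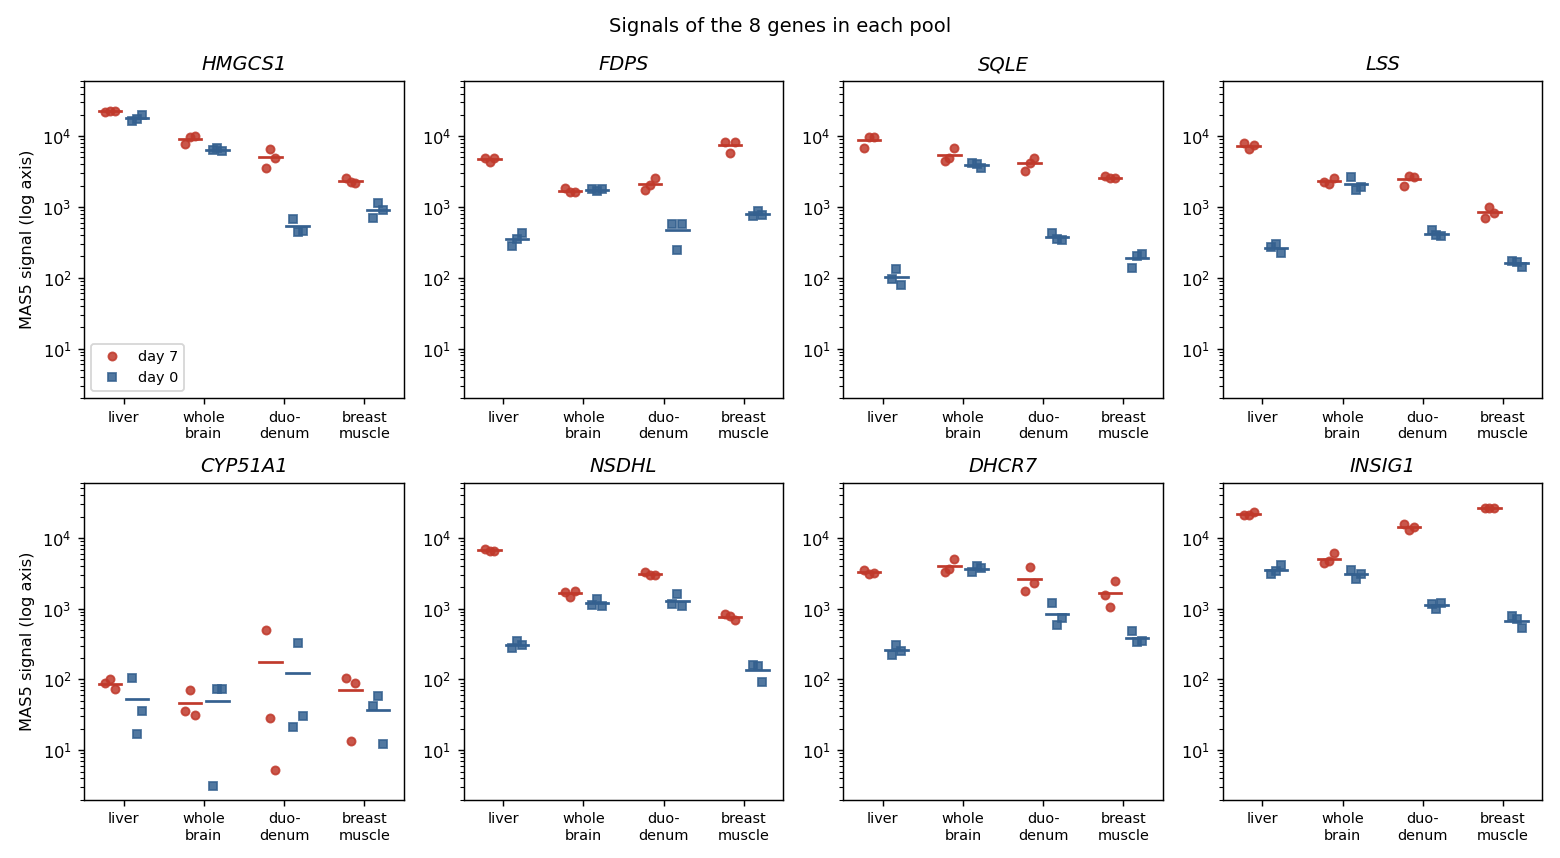
MAS5 signal on a log axis for each of the 8 genes by tissue. Circles are the 3 day 7 pools, squares the 3 day 0 pools and short lines their means. HMGCS1, FDPS, SQLE, LSS, NSDHL, DHCR7 and INSIG1 lie higher at day 7 in liver, duodenum and breast muscle with no overlap. In brain the ages lie closer together than in these tissues except for HMGCS1, and overlap for FDPS, LSS and DHCR7. CYP51A1 scatters at low signals.

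HMGCS1 and FDPS act early in the chain. HMGCS1, the cytosolic HMG-CoA synthase, had signals of 21783, 22670 and 22795 in the day 7 liver pools, against 16175, 17428 and 19705 at day 0. Liver was thus bright at both ages, and the change of 0.34 ± 0.19 was the smallest that HMGCS1 showed in any tissue and was not called, although the pools did not overlap. These signals lay between the 99th and the 99.4th percentile of their arrays, where the brightest probe set reached 63312 to 99509.

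In duodenum HMGCS1 had 3556, 6513 and 4914 at day 7, against 683, 447 and 463 at day 0, a change of 3.15 ± 0.19. In breast muscle it had 2540, 2272 and 2205 at day 7, against 709, 1134 and 902 at day 0 (1.35 ± 0.19). In whole brain it had 7772, 9730 and 9916 at day 7, against 6313, 6816 and 6077 at day 0 (0.50 ± 0.19, not called). In all 4 tissues every day 7 pool lay above every day 0 pool, as was also the case for SQLE, NSDHL and INSIG1. The share of all probe sets with this in all 4 tissues was not computed.

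FDPS, which makes farnesyl diphosphate, the last intermediate shared with the protein prenylation and ubiquinone branches, had 4982, 4372 and 4846 in liver at day 7, against 282, 355 and 433 at day 0. The change was 3.65 ± 0.22. In breast muscle it had 8196, 5843 and 8135 at day 7, against 750, 862 and 760 at day 0 (3.16 ± 0.22), and this muscle level at day 7 was the highest of the 8 groups, above liver at day 7 with no overlap. In duodenum FDPS had 1747, 2049 and 2539 at day 7, against 577, 248 and 583 at day 0 (2.18 ± 0.22). In whole brain the pools overlapped, with 1880, 1606 and 1602 at day 7 and 1802, 1688 and 1790 at day 0 (-0.06 ± 0.22).

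SQLE and LSS make the first sterol: SQLE oxidises squalene to its epoxide and LSS folds the epoxide into lanosterol. SQLE had 6798, 9587 and 9652 in liver at day 7, against 96, 132 and 79.3 at day 0. Among the brightest probe sets of the 8 genes this was the largest age change in any tissue, 6.06 ± 0.20. The day 0 liver pools were the lowest of the 8 groups, and their mean of 102 lay under the signal filter value of 104.57. With other values added before taking logs the change ran from 5.40 (the median signal added) to 6.41 (1 added).

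In breast muscle SQLE had 2724, 2526 and 2540 at day 7, against 139, 204 and 218 at day 0 (3.63 ± 0.20). In duodenum it had 3221, 4184 and 4963 at day 7, against 432, 350 and 336 at day 0 (3.36 ± 0.20). In whole brain SQLE was already bright at hatch, with 4434, 4904 and 6803 at day 7 against 4136, 4015 and 3548 at day 0 (0.44 ± 0.20, not called). A second SQLE probe set gave 5.82 in liver, 0.29 in brain, 3.21 in duodenum and 3.01 in breast muscle, and differed in that its brain pools overlapped.

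LSS had 7966, 6534 and 7529 in liver at day 7, against 275, 304 and 224 at day 0, a change of 4.64 ± 0.17. In duodenum it had 1988, 2723 and 2638 at day 7, against 466, 397 and 390 at day 0 (2.46 ± 0.17). In breast muscle it was the dimmest of the 4 tissues at both ages, with 687, 1002 and 822 at day 7, against 173, 167 and 141 at day 0 (2.19 ± 0.17). Brain pools overlapped, with 2276, 2128 and 2531 at day 7 and 2621, 1720 and 1904 at day 0. The other 2 probe sets of LSS gave smaller changes in liver, 4.11 and 2.29, and the dimmer of them was not called in breast muscle (0.83 ± 0.41).

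CYP51A1, NSDHL and DHCR7 work on the sterol after lanosterol. CYP51A1 removes the methyl group at carbon 14, but its only probe set read 3.17 to 106 on all arrays except duodenum day 7 pool 1 (503) and duodenum day 0 pool 2 (324). Those were the arrays with the bright control transcripts. No group reached the signal filter, so CYP51A1 was not tested and no level can be given for it. Its age changes of 0.65 in liver, 0.08 in brain, -0.00 in duodenum and 0.48 in breast muscle came from pools that overlapped in each tissue.

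NSDHL, which helps to remove the methyl groups at carbon 4, had 7029, 6469 and 6487 in liver at day 7, against 282, 346 and 303 at day 0 (4.31 ± 0.17). In breast muscle it had 832, 785 and 702 at day 7, against 158, 154 and 90.8 at day 0 (2.33 ± 0.17). Its duodenum change was the smallest of the 7 tested genes there, 1.28 ± 0.17, with 3271, 3019 and 3007 at day 7 against 1155, 1601 and 1078 at day 0. That day 0 level was the highest mean of the 4 tissues at hatch, though its pools overlapped those of brain. In brain it had 1699, 1475 and 1791 at day 7, against 1124, 1356 and 1103 at day 0 (0.46 ± 0.17, no overlap, not called).

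DHCR7, which carries out the last reduction to cholesterol, had 3570, 3065 and 3229 in liver at day 7, against 223, 307 and 253 at day 0 (3.53 ± 0.27). In duodenum it had 1803, 3826 and 2270 at day 7, against 1212, 593 and 730 at day 0 (1.60 ± 0.27). In breast muscle it had 1568, 1045 and 2423 at day 7, against 483, 340 and 348 at day 0 (1.96 ± 0.27). The pools of these 3 tissues did not overlap between the ages, but DHCR7 had the widest relative spread of the 7 genes in breast muscle at day 7, with a coefficient of variation of 41.4%. Whole brain held the highest DHCR7 level at either age, with 3270, 3666 and 4970 at day 7 and 3291, 4024 and 3719 at day 0, which overlapped. A second DHCR7 probe set stayed below the signal filter in every group.

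INSIG1, the regulator, moved most in breast muscle. It had 26752, 26738 and 26101 there at day 7, against 788, 712 and 537 at day 0, a change of 5.25 ± 0.15. Breast muscle thus held the lowest INSIG1 level of the 8 groups at hatch and the highest at day 7, where the signal lay at the 99.4th percentile of each array. The other 2 probe sets of INSIG1 gave 4.34 and 6.37 in breast muscle, the second with day 0 signals of only 30.5 to 50.2.

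In duodenum INSIG1 had 15486, 13067 and 14146 at day 7, against 1167, 1003 and 1197 at day 0 (3.63 ± 0.15). In liver it had 20852, 21345 and 23386 at day 7, against 3041, 3433 and 4111 at day 0 (2.63 ± 0.15). Liver was the brightest tissue at hatch and gave a smaller INSIG1 change than duodenum and breast muscle, whereas SQLE, LSS, NSDHL, DHCR7 and FDPS changed most in liver. In brain INSIG1 had 4445, 4636 and 6075 at day 7, against 3485, 2583 and 3049 at day 0 (0.72 ± 0.15).

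INSIG1 was the only gene of the 8 called in brain, where its other probe sets gave 0.71 and 0.96 and were not called. The count of 1 became 0 with brain fitted alone, with median centring, with no signal filter and without the 2 brain arrays of low 5′ signal. It also became 0 without brain day 0 pool 2 or 3, without any of the 3 day 7 brain pools, and without liver day 0 pool 2 or any of the 3 day 7 breast muscle pools. Brain day 7 pool 3, an array of low 5′ signal, was the highest of its group for 6 of the 7 tested genes. Brain day 0 pool 1, the other array of low 5′ signal, was the highest of its group for 4 of the 7. Breast muscle day 7 pool 1, with no low 5′ signal, was the highest of its group for 5 of the 7. The share over all probe sets was not computed, and a part of the 5′ signal in these counts was not tested. In whole brain 60 of 25758 probe sets were called in all (0.233%), and 1610 had an unadjusted p under 0.05.

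The 8 groups were ranked by mean signal for each gene. The top group was liver at day 7 for HMGCS1 (22416 ± 551), SQLE (8679 ± 1629), LSS (7343 ± 734) and NSDHL (6662 ± 318), breast muscle at day 7 for FDPS (7392 ± 1341) and INSIG1 (26530 ± 372), and brain at day 7 for DHCR7 (3969 ± 889). The lowest group was liver at day 0 for FDPS (357 ± 75.7), SQLE (102 ± 26.8) and DHCR7 (261 ± 42.8), and breast muscle at day 0 for LSS, NSDHL and INSIG1. HMGCS1 stood apart, with liver at day 0 in second place and duodenum at day 0 (531 ± 132) last.

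Several neighbours in these orders did not differ beyond their spread. For SQLE the pools of liver, brain and duodenum at day 7 and brain at day 0 overlapped from each place to the next, and for DHCR7 the top 6 groups did so. For LSS and FDPS, duodenum at day 7 and brain at both ages overlapped from place to place, and for NSDHL brain at day 7, duodenum at day 0 and brain at day 0 did so. For FDPS duodenum and liver at day 0 overlapped too, and for HMGCS1 brain at day 0 and duodenum at day 7. For INSIG1 the only overlapping neighbours were liver and brain at day 0, whose means were 3528 ± 541 and 3039 ± 451.

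The tissues lay closer together at day 7 than at hatch for most of the genes. The highest tissue mean was 3.34 times the lowest at day 7 and 38.1 times at day 0 for SQLE, and 2.36 times at day 7 and 14.1 times at day 0 for DHCR7. It was 9.58 times at day 7 and 33.5 times at day 0 for HMGCS1, and 8.77 and 13 times for LSS at day 7 and day 0. FDPS (4.36 at day 7, 4.94 at day 0) and NSDHL (8.62 at day 7, 9.51 at day 0) had nearly the same ratio at both ages, and INSIG1 had 5.25 at day 7 and 5.2 at day 0. The ratio was smaller at day 7 in 6 of the 7 genes, though only slightly in FDPS and NSDHL. The day 0 ratio of SQLE rests on a liver mean of 102, under the signal filter value of 104.57, so its size is uncertain. The smaller ratios at day 7 follow in part from the same age changes that chose the genes, and they were not tested. The share over all genes was not computed.

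**Figure D2:**
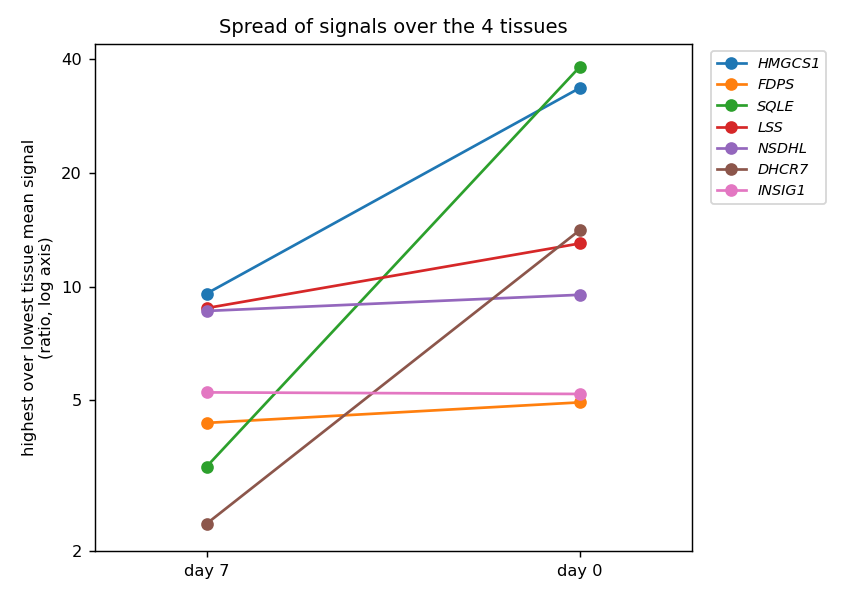
Ratio of the highest to the lowest tissue mean signal (log axis) at day 7 and at day 0 for the 7 genes above the signal filter, each joined by a line. SQLE, DHCR7 and HMGCS1 have a far smaller ratio at day 7 (3.34, 2.36 and 9.58) than at day 0 (38.1, 14.1 and 33.5), and INSIG1 lies at 5.25 at day 7 and 5.2 at day 0.

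Averaged over both ages on the log2 scale, the 7 genes differed between tissues in 35 of 42 comparisons. Differences between tissues were common on this array. The 7 genes had 6 calls for liver minus brain (68.1% of all probe sets were called), 6 for liver minus duodenum (47.7%), 6 for liver minus breast muscle (56.2%), 6 for brain minus duodenum (66.3%), 6 for brain minus breast muscle (63.5%) and 5 for duodenum minus breast muscle (57%). HMGCS1 was higher in liver than in each other tissue, by 1.38 ± 0.13 over whole brain (adjusted p = 9.28e-10), 3.61 ± 0.13 over duodenum (1.37e-17) and 3.75 ± 0.13 over breast muscle (2.86e-18). These 3 differences had the same sign at each age taken alone. For duodenum minus breast muscle it was 0.15 ± 0.13 (adjusted p = 0.362).

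Whole brain exceeded breast muscle for the later enzymes and for HMGCS1. The difference was 2.61 ± 0.14 for SQLE (adjusted p = 1.53e-14), 2.46 ± 0.12 for LSS (5.29e-15), 2.37 ± 0.13 for HMGCS1 (3.55e-14), 2.22 ± 0.19 for DHCR7 (2.45e-10) and 2.00 ± 0.12 for NSDHL (1.58e-13), each with the same sign at both ages. FDPS had the opposite sign, at -0.48 ± 0.16 (adjusted p = 0.00962), and was higher in brain by 1.13 at day 0 alone. Whole brain also exceeded duodenum for SQLE by 1.84 ± 0.14 (adjusted p = 1.34e-11) and for DHCR7 by 1.39 ± 0.19 (7.19e-07). At day 7 alone these differences were 0.38 and 0.64, beside 3.30 and 2.14 at day 0 alone, and each lost its call in 1 alternative. For this pair of tissues 5 genes were called higher in brain and 1 lower, which was NSDHL at -0.49 ± 0.12 (0.000892).

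Breast muscle was below duodenum and liver for NSDHL and LSS and above both for FDPS. The duodenum minus breast muscle difference was 2.49 ± 0.12 for NSDHL (adjusted p = 2.31e-15) and 1.38 ± 0.12 for LSS (4.71e-10), while that of FDPS was -1.30 ± 0.16 (9.37e-08). Liver minus breast muscle was 2.07 ± 0.12 for NSDHL (adjusted p = 8.04e-14), 1.87 ± 0.12 for LSS (1.21e-12) and -0.87 ± 0.16 for FDPS (3.87e-05). These FDPS differences kept their sign at both ages. For liver minus breast muscle, SQLE was at 0.50 ± 0.14 (adjusted p = 0.0036) and at -0.72 at day 0 alone. DHCR7 was at 0.25 ± 0.19 (adjusted p = 0.277), with 1.04 at day 7 alone and -0.53 at day 0 alone. The dimmest LSS probe set gave 0.82 ± 0.29 for liver minus brain (adjusted p = 0.0161), where the brightest gave a negative difference of -0.58 and the second was not called (-0.18, 0.386), and it was not called for brain minus duodenum, brain minus breast muscle or duodenum minus breast muscle (0.922, 0.122 and 0.162).

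INSIG1, averaged over the ages, was higher in liver than in brain by 1.17 ± 0.11 (adjusted p = 4.5e-10), than in duodenum by 1.12 ± 0.11 (2.32e-09) and than in breast muscle by 1.03 ± 0.11 (6.73e-09). The first was 0.21 at day 0 alone and lost its call in 1 of 24 alternatives, and the last turned to -0.28 at day 7 alone. Its differences among brain, duodenum and breast muscle were -0.14 to -0.05 and not called. A second INSIG1 probe set was called for 1 of them, brain minus breast muscle, at -0.55 ± 0.18 (adjusted p = 0.0117). The ages hid opposite values: brain minus breast muscle was 2.12 at day 0 alone and -2.40 at day 7 alone. In all, 19 of the 42 comparisons had opposite signs at the separate ages. This count follows in part from the age changes that chose the genes. The share over all probe sets was not computed. SQLE, for example, was -2.12 ± 0.14 for liver minus brain over both ages (adjusted p = 7.35e-13) and 0.69 at day 7 alone.

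The other enzymes of the pathway were not chosen for this list and could be tested. Of 9 measured, 9 rose in liver, 5 rose and 2 fell in duodenum, and 6 rose and 1 fell in breast muscle, while none was called in brain (limma; beside 1610 of all probe sets at an unadjusted p under 0.05). Over all probe sets tested, 5.33% were called higher and 6.15% lower in liver, 9% higher and 14.1% lower in duodenum, 11.9% higher and 15.5% lower in breast muscle, and 0.132% higher and 0.101% lower in brain. The falls among the 9 enzymes, 2 of 9 in duodenum and 1 of 9 in breast muscle, lie near these shares. The median log2 change of the 9 was 2.10 in liver, 1.31 in duodenum, 1.57 in breast muscle and 0.27 in brain. These enzymes were known to have changed when the list was written, and the HMG-CoA reductase and several late enzymes were not analysed here.

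**Figure D3:**
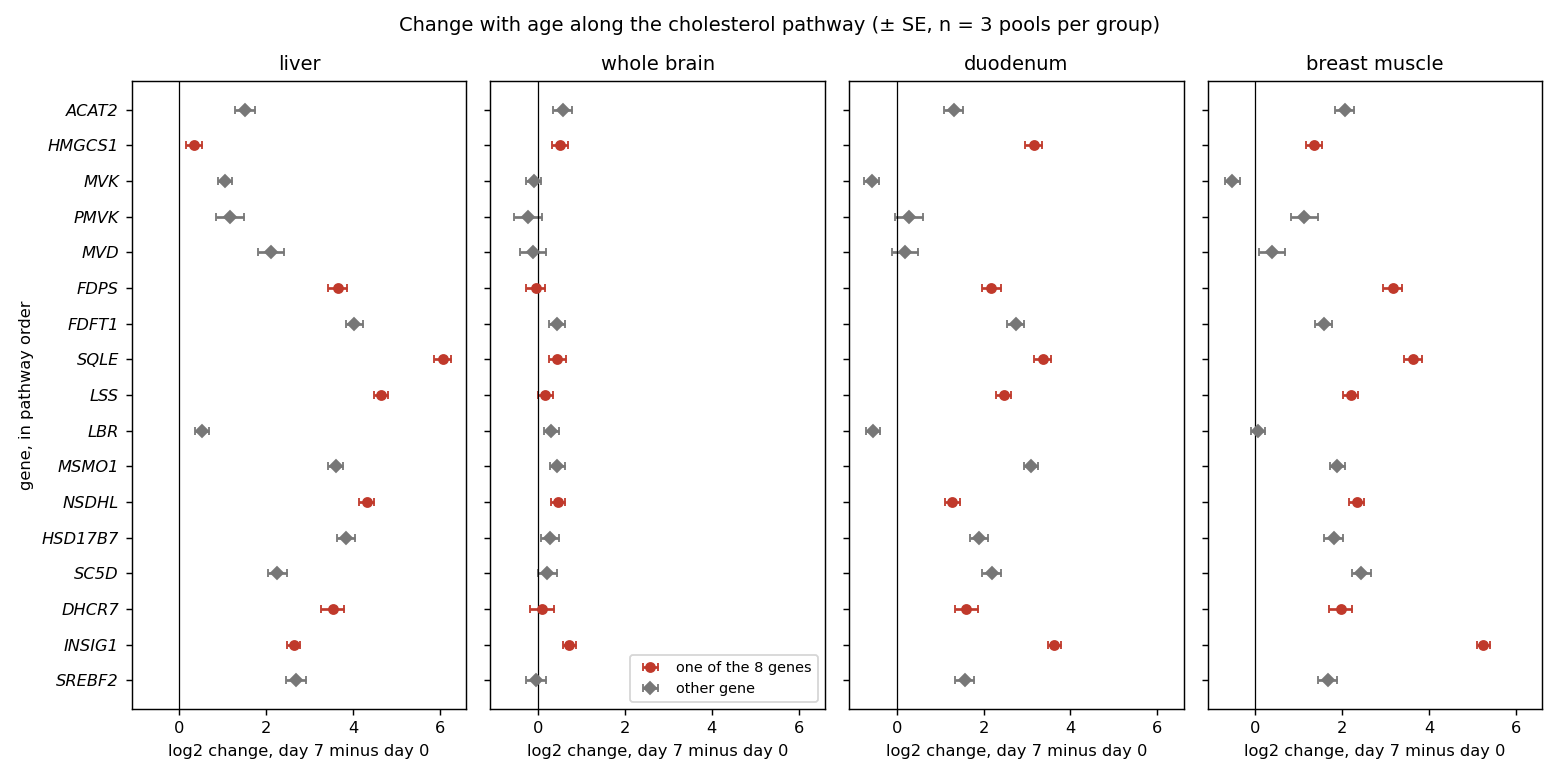
Log2 change from day 0 to day 7 (x axis, day 7 minus day 0) of pathway enzymes in pathway order with INSIG1 and SREBF2 below them, in 4 panels for the tissues, with bars for ± SE. Red circles are the 7 tested genes of the list of 8 and grey diamonds other genes: in liver the red circles run from 0.34 for HMGCS1 to 6.06 for SQLE, in brain no point exceeds 0.72, and in duodenum MVK and LBR lie below 0.

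FDFT1, MSMO1 and HSD17B7 showed large rises. FDFT1, which joins farnesyl units into squalene, had 5691, 6963 and 6023 in liver at day 7, against 465, 301 and 311 at day 0, a change of 4.03 ± 0.19 (adjusted p = 1.29e-13). It rose by 2.74 ± 0.19 in duodenum (3.66e-10) and 1.57 ± 0.19 in breast muscle (1.02e-06). MSMO1, the first enzyme of the removal of the carbon 4 methyl groups, rose by 3.60 ± 0.17 in liver (adjusted p = 7.26e-14), 3.09 ± 0.17 in duodenum (4.89e-12) and 1.89 ± 0.17 in breast muscle (5.36e-09). In brain it had 16962, 17689 and 21140 at day 7, against 15405, 13702 and 12111 at day 0, with no overlap, but the change of 0.44 was not called (adjusted p = 0.56).

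HSD17B7, which acts beside NSDHL, rose by 3.83 ± 0.21 in liver (adjusted p = 1.97e-12), 1.90 ± 0.21 in duodenum (4.26e-07) and 1.80 ± 0.21 in breast muscle (4.27e-07), and its second probe set was called in the same tissues. SC5D, a late desaturase, rose by 2.25 ± 0.22 in liver (9.42e-08), 2.19 ± 0.22 in duodenum (1.35e-07) and 2.44 ± 0.22 in breast muscle (8.6e-09). Its second probe set was called only in liver, and gave -0.06 in breast muscle. ACAT2, which condenses acetyl-CoA at the start of the chain, rose by 1.51 ± 0.22 in liver (2.64e-05), 1.31 ± 0.22 in duodenum (8.45e-05) and 2.06 ± 0.22 in breast muscle (9.01e-08), and its dimmer second probe set was not called in any tissue.

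The mevalonate kinases and decarboxylase changed less widely. MVD, the decarboxylase, rose in liver by 2.10 ± 0.30 (adjusted p = 1.98e-05) and was not called in duodenum (0.18) or breast muscle (0.39). PMVK rose by 1.17 ± 0.32 in liver (0.0162) and 1.13 ± 0.32 in breast muscle (0.00959). The liver call was lost without day 7 pool 1 or day 0 pool 1 or 2 (adjusted p of 0.0537 to 0.119), and the muscle call without day 0 pool 1 (0.072).

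MVK, the mevalonate kinase, had 1481, 1528 and 1432 in liver at day 7, against 849, 598 and 672 at day 0, and rose by 1.05 ± 0.17 (adjusted p = 0.00011). In duodenum it had 495, 454 and 423 at day 7, against 533, 857 and 745 at day 0 (-0.58 ± 0.17, 0.0136), and in breast muscle 469, 397 and 572 at day 7, against 723, 689 and 683 at day 0 (-0.53 ± 0.17, 0.0211). Both falls had no overlap but were slight. The duodenum call was lost without day 0 pool 2 or 3 or day 7 pool 3 (0.0517 to 0.0787), and the muscle call without day 0 pool 1 or day 7 pool 1 or 2 (0.0552 to 0.12). Both were also lost with median centring (0.0532 and 0.117). The duodenum call was lost too with duodenum fitted alone (0.105) and without the 2 arrays of bright control transcripts (0.0637), and the muscle call with quantile normalization (0.094). A dimmer second MVK probe set was called in no tissue, with 0.99 in liver (adjusted p = 0.158), -0.36 in duodenum (0.619) and -0.35 in breast muscle (0.597).

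LBR, a nuclear membrane protein that also reduces the sterol at carbon 14, rose by 0.52 ± 0.17 in liver (adjusted p = 0.0458) and fell by 0.55 on the log2 scale in duodenum (SE 0.17, 0.0188, pools overlapping). The liver call was lost without any single liver pool (0.0686 to 0.167), and the duodenum call without day 0 pool 2 or day 7 pool 2 or 3 (0.0803 to 0.106). A second LBR probe set was not called in liver (0.29, adjusted p = 0.321) but was called in duodenum.

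Differences between tissues in age change were tested for these 9 enzymes. The change was larger in liver than in brain for 6 of 9 (1.97% of all probe sets had such a call), larger in liver than in duodenum for 5 (4.74%) and larger in liver than in breast muscle for 5 (11.2%). It was larger in breast muscle than in brain for 6 (6.2%) and larger in duodenum than in brain for 4 (4.13%). For FDFT1 the liver change exceeded that of brain by 3.59 ± 0.27 (adjusted p = 3.27e-09), of breast muscle by 2.47 ± 0.27 (4.5e-07) and of duodenum by 1.29 ± 0.27 (0.00322).

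The list of regulators held 13 measured genes. SREBF2, which encodes SREBP2, had 8150, 3826 and 4619 in liver at day 7, against 810, 778 and 776 at day 0, and rose by 2.69 ± 0.23 (adjusted p = 6.89e-09). It rose by 1.56 ± 0.23 in duodenum (1.88e-05) and 1.66 ± 0.23 in breast muscle (4.84e-06). In brain the pools overlapped, with 2604, 2692 and 2615 at day 7 and 4307, 2320 and 1997 at day 0 (-0.04 ± 0.23, adjusted p = 1). The brain change was smaller than that of liver by 2.73 ± 0.32, given as liver minus brain (adjusted p = 4.52e-06).

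The rest of this machinery moved in few tissues. INSIG2, the paralogue of INSIG1, had 1564, 2849 and 2977 in duodenum at day 7, against 1790, 1123 and 1232 at day 0 (0.79 ± 0.18, adjusted p = 0.00227, lost at 0.0973 with duodenum fitted alone). RNF139, a ubiquitin ligase that binds INSIG proteins, rose by 0.78 ± 0.11 in duodenum (1.96e-05). ERLIN2, a membrane protein in the turnover of HMG-CoA reductase, fell by 0.54 on the log2 scale in duodenum (0.00296), a call lost with median centring (0.0649), with duodenum fitted alone (0.058) and with its second probe set (0.153). In breast muscle INSIG2, named there after its values were seen, had 738, 796 and 809 at day 7, against 1404, 1456 and 1282 at day 0, and its change was -0.80 ± 0.18 (adjusted p = 0.00168).

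NFYC, a subunit of the factor NF-Y that acts beside SREBP2, fell by 1.05 in liver (SE 0.15, adjusted p = 2.54e-05) and by 1.07 in breast muscle (SE 0.15, 7.06e-06), both on the log2 scale. Its second probe set was not called in liver (-0.19) and was in breast muscle (-1.05), and another probe set was called in neither. MBTPS2, a protease that releases SREBP2, fell by 1.09 in breast muscle (SE 0.22, adjusted p = 0.000476), where its second probe set was not called (-0.75, 0.198). SCAP, named there after its values were seen, had 149, 246 and 135 at day 7, against 397, 343 and 414 at day 0 (-1.05 ± 0.23, adjusted p = 0.00101). Its second probe set gave -0.14 in breast muscle (0.816), and none of its 3 dimmer probe sets was called in any tissue. SREBF1 rose there by 1.47 ± 0.47 (0.0203), at dim signals of 99.7 to 162 at day 7 and 12.3 to 73.3 at day 0. That call was lost without day 7 pool 1 or 3 or day 0 pool 2 or 3 (0.0555 to 0.0957). Counted over the list, 1 gene rose and 1 fell in liver, none was called in brain, 3 rose and 1 fell in duodenum, and 3 rose and 5 fell in breast muscle. Beside the shares of all probe sets called higher (5.33%, 9% and 11.9% in liver, duodenum and breast muscle) and lower (6.15%, 14.1% and 15.5%), a count of 1 of 13 is near the background.

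Genes that import, store, export or convert cholesterol were called in both directions. Of 22 tested, 5 rose and 4 fell in liver, 9 rose and 1 fell in duodenum, 4 rose and 8 fell in breast muscle, and none was called in brain. The shares called among all probe sets were 5.33% higher and 6.15% lower in liver, 9% higher and 14.1% lower in duodenum, and 11.9% higher and 15.5% lower in breast muscle, so the 1 fall in duodenum lies under its share and the 4 rises in breast muscle lie near theirs. The median change over the 24 measured, which include genes below the signal filter, was 0.21 in liver, 0.42 in duodenum, -0.33 in breast muscle and 0.11 in brain. STARD4, a carrier of sterol between membranes, rose by 2.84 ± 0.24 in liver (adjusted p = 6.73e-09), 1.77 ± 0.24 in duodenum (7.07e-06) and 1.88 ± 0.24 in breast muscle (1.67e-06). Its liver pools had 5121, 6250 and 6244 at day 7, against 829, 760 and 786 at day 0. In brain it had 4137, 4325 and 5168 at day 7, against 3414, 2984 and 2533 at day 0 (0.61, not called).

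In liver, CYP7A1, which starts bile acid synthesis, had 8681, 5183 and 4918 at day 7, against 3248, 2475 and 1669 at day 0 (1.34 ± 0.35, adjusted p = 0.0127). The call was lost without day 7 pool 1 (0.0974) or day 0 pool 3 (0.0935), and with 1 added before taking logs (0.303). STARD5, another sterol carrier, rose by 1.87 ± 0.46 (0.00749) at dim signals of 76.8 to 273 at day 7 and 10.9 to 65.2 at day 0, a call lost without day 7 pool 1 or day 0 pool 2 (0.0526 to 0.0581). ABCG5, which with ABCG8 exports sterol into bile and gut lumen, had 658, 846 and 1042 at day 7, against 1827, 1824 and 1972 at day 0 (-1.14 ± 0.29, 0.0103). That ABCG5 call was lost without day 7 pool 1 (0.0693) and with 1 added before taking logs (0.124).

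In duodenum, SCARB1, a receptor that takes up lipoprotein cholesterol, had 7218, 8398 and 6895 at day 7, against 779, 730 and 1138 at day 0 (3.07 ± 0.25, adjusted p = 3.21e-09). LIPA, the lysosomal lipase that frees cholesterol from its esters, rose by 1.44 ± 0.18 (1.94e-06), and CYP46A1, a cholesterol 24-hydroxylase, by 1.40 ± 0.24 (9.52e-05). ABCG5, named there after its values were seen, had 2474, 3275 and 3981 at day 7, against 1088, 1034 and 1560 at day 0 (1.38 ± 0.29, 0.00111), the opposite direction from liver.

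In breast muscle, SOAT1, which esterifies cholesterol for storage, had 740, 767 and 776 at day 7, against 2794, 2780 and 2671 at day 0, and fell by 1.81 on the log2 scale (SE 0.18, adjusted p = 2.51e-08). LCAT, which esterifies cholesterol on lipoproteins, fell by 1.41 (SE 0.25, 0.000109). ABCA1, an exporter of cholesterol to lipoproteins, fell by 1.10 (SE 0.41, 0.0467), and that call was lost without any single pool except day 0 pool 2 (0.0604 to 0.208).

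CYP46A1, which in mammals is expressed mainly in neurons, is named for brain after its values were seen. It had 1368, 1199 and 1268 there at day 7, against 636, 620 and 586 at day 0. These pools lay far apart (1.02 ± 0.24), but the change missed the threshold (adjusted p = 0.0691) and passed it with quantile normalization (0.0346) and with array weights (0.000433).

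**Figure D4:**
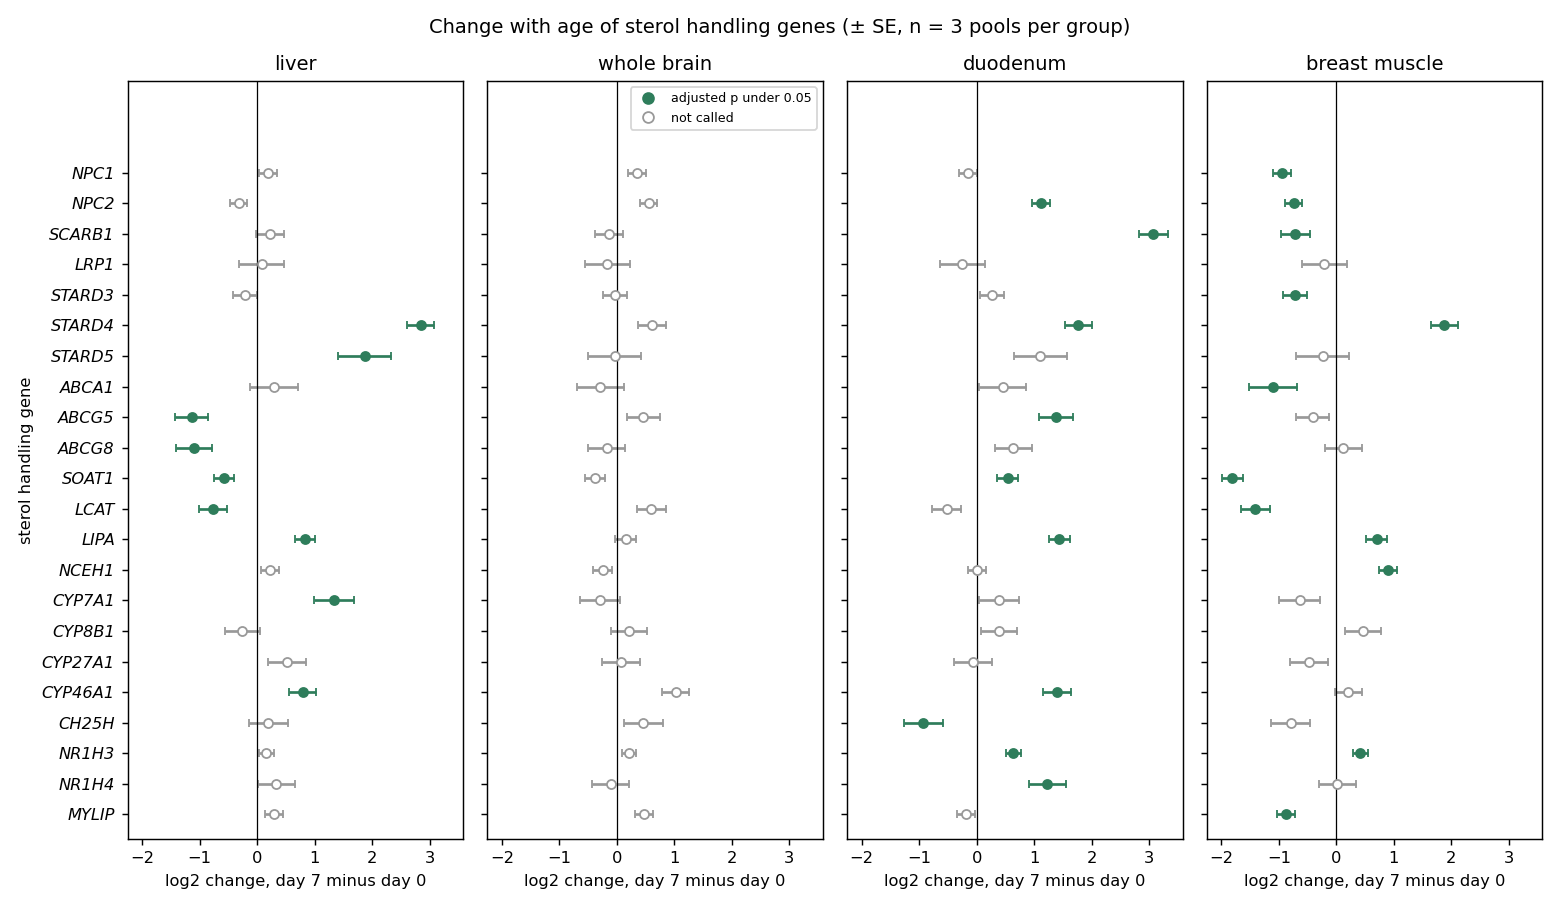
Log2 change from day 0 to day 7 (x axis, day 7 minus day 0) of the 22 tested genes that handle sterol, in 4 panels for the tissues, with bars for ± SE. Filled points passed an adjusted p of 0.05: STARD4 lies right of 0 in liver, duodenum and breast muscle (2.84, 1.77 and 1.88), SCARB1 stands out in duodenum (3.07), and SOAT1 lies lowest in breast muscle (-1.81).

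Of 6 genes on the branches that leave the pathway at farnesyl diphosphate, 1 rose and 1 fell in liver, 1 rose and 1 fell in duodenum, 3 rose in breast muscle and none was called in brain. With 6 genes, nothing is read from a count of 1 in liver (5.33% of all probe sets higher, 6.15% lower) or duodenum (9% higher, 14.1% lower), and 11.9% of all probe sets rose in breast muscle. PDSS2, a subunit of the enzyme that makes the ubiquinone side chain, had 10774, 10080 and 12477 in breast muscle at day 7, against 3804, 4357 and 4829 at day 0 (1.35 ± 0.17, adjusted p = 1.05e-06). GGPS1, which makes geranylgeranyl diphosphate from the product of FDPS, rose there by 1.01 ± 0.14 (8.31e-06), and NUS1, of the dolichol branch, by 0.64 ± 0.12 (0.00015). In duodenum PDSS2 fell by 0.78 (SE 0.17, 0.0013) and DHDDS, the partner of NUS1, rose by 1.26 ± 0.20 (4.17e-05). In liver PDSS1, the partner of PDSS2, fell by 1.07 (SE 0.19, 0.00042). GGPS1 rose in liver by 0.44 ± 0.14 (0.0477), a call lost without day 0 pool 2 or 3 or any of the 3 day 7 pools (0.0727 to 0.264).

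Across the 8 group means, the genes most like the mean profile of the list were sought among 11444 genes, as a description with no test. The closest was UHMK1, a kinase that acts on a splicing factor, with r = 0.988, although its changes were small (0.66 in liver, 0.11 in brain, 0.29 in duodenum and 0.47 in breast muscle). IDI2, named by the annotation as an isopentenyl diphosphate isomerase, followed at 0.946, with 11451, 12820 and 13349 in liver at day 7, against 1235, 1231 and 1253 at day 0. Then came PIK3R5 (0.935), FDFT1 (0.934), STARD4 and SREBF2 (0.933 each), CBFA2T2 (0.928), MSMO1 (0.927), TMSB15B (0.925) and HSD17B7 (0.919). The points share arrays, and without CYP51A1 in the mean 8 of these 10 genes stayed among the first 10.

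The profiles of the list were not all alike. Correlation between pairs over the 8 groups was highest for SQLE and DHCR7 (0.974) and for SQLE and LSS (0.943), and was 0.262 for HMGCS1 and FDPS. HMGCS1 correlated with the mean profile at 0.566, the lowest of the 7, and LSS at 0.964. That mean of the 8 genes includes each gene itself, which raises these values, and also CYP51A1. The genes most like INSIG1 alone were TNFRSF14 (0.937), C1orf158 (0.928), COL26A1 (0.919), BMPR2 (0.913) and EIF5 (0.898), none of which is on the pathway lists. INSIG1 itself correlated with FDPS at 0.822 and with DHCR7 at 0.559.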

How the data were processed

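Measurements came from 24 arrays. The deposited values are MAS5 intensity per probe set, per the submitters' processing notes. The sources used here name no version, settings or genome build. By their values the deposited arrays share a scale: the mean signal after trimming 2% at each end was 499.9 to 500. RNA was extracted with Trizol and target made from 2 µg, per the labels' protocols.

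Of 38535 probe sets, 96 controls were left out. Of the 38535, 27178 had 1 symbol in the annotation, 177 several and 11180 none, and 26863 probe sets with 1 symbol were matched to RefSeq GRCg7b by gene number. Signals became log2(signal + 28.36), the 25th percentile of all signals, and 25758 probe sets were kept where a group mean reached 104.57, the median, on that scale. A model of 8 group means was fitted with limma 3.58.1 in R 4.3.3 (16 residual degrees of freedom, 7.94 from the prior, variances following the signal level). The fit was tested on simulated data. The 8 genes, the other lists and the tests were chosen with earlier results of these data known. All listed pathway enzymes could be named, and per tissue up to 4 called genes of each other list by size of change. Nothing says that pools of different groups were matched. The number of arrays limits the precision, and p-values measure only the spread between pools. Sequences and coordinates were not used here.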

Additional observations from a re-analysis of the deposited data

Results flagged for a closer look

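In 10 cases a listed gene outside the 8 had age changes called in opposite directions in a pair of tissues, and the difference itself passed the test. Because a case first needed both opposite calls, its difference was likely to pass, and these p-values add no separate support. The share of such cases over all genes was not computed. They are given as log2 change in the first tissue minus that in the second, with the limma adjusted p. For MVK, liver minus duodenum was 1.64 ± 0.24 (5.08e-05) and liver minus breast muscle 1.58 ± 0.24 (3.13e-05), a rise in liver beside slight falls in the others, none of which its second probe set called (adjusted p of 0.158 in liver, 0.619 in duodenum and 0.597 in breast muscle). For LBR, liver minus duodenum was 1.07 ± 0.24 (0.00478), although both calls behind it were lost when single pools were left out (adjusted p of 0.0686 to 0.167 in liver and 0.0803 to 0.106 in duodenum). A second LBR probe set did not call the liver rise (adjusted p = 0.321).

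INSIG2 differed by 1.59 ± 0.26 for duodenum minus breast muscle (5.39e-05). For the same pair, NPC2, a lysosomal cholesterol carrier, differed by 1.86 ± 0.21 (3.04e-07), SCARB1 by 3.78 ± 0.35 (2.14e-08) and SOAT1 by 2.36 ± 0.25 (1.65e-07). PDSS2 differed the other way, by -2.13 ± 0.24 (3.44e-07). Liver minus duodenum was -2.52 ± 0.41 for ABCG5 (0.00021) and -1.12 ± 0.25 for SOAT1 (0.00495). The SCARB1 fall in breast muscle was lost without day 7 pool 3 or day 0 pool 1 or 2 (0.0968 to 0.318). The SOAT1 fall in liver was lost without any single liver pool (0.0697 to 0.0948), and its rise in duodenum without day 7 pool 1 or day 0 pool 1 or 3 (0.148 to 0.178). A second SOAT1 probe set was not called in liver (-0.15, adjusted p = 0.892) or duodenum (0.86, 0.153), but was called lower in breast muscle.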

How the results depend on the processing

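For the 8 genes, the called counts in duodenum and breast muscle stayed at 7 under the alternatives run, and that in liver went from 6 to 7 with liver fitted alone, where HMGCS1 was called. The brain count of 1 became 0 with no filter on low signals, median centring, brain fitted alone, and without the 2 arrays of low 5′ signal, and was 0 to 1 when single brain pools were left out. These counts were added after seeing the data. The median of the 8 genes in liver was 3.31 with the median signal added and 3.03 with second probe sets, and in breast muscle 1.85 with the median signal added.

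All probe sets called numbered 2958 in liver, against 4924 with array weights and 4843 with liver fitted alone (2037 to 2390 without single pools). In brain 60 became 96 with quantile normalization, 36 with median centring, 362 with array weights, 18 without the arrays of low 5′ signal and 14 with brain fitted alone (26 to 48 without single pools). In duodenum 5948 became 3430 with duodenum fitted alone. With second probe sets the other pathway genes called were 6, against 9, in liver, 4, against 7, in duodenum and 4, against 7, in breast muscle. The liver count was 7 to 8 without single liver pools. With second probe sets SC5D (-0.06) and ERLIN2 (-0.58) turned negative in breast muscle. Age calls of listed genes outside the 8 were lost in 143 of 3156 alternative runs. Beside the left-out pools named above, other settings also lost the calls of LBR, GGPS1 and SOAT1 in liver. The same held for LBR and SOAT1 in duodenum and for ABCA1 and SCARB1 in breast muscle.

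Of the 7 genes' tissue differences, these turned at day 7 alone: liver minus brain to 1.47 for FDPS, 0.69 for SQLE and 1.65 for LSS; liver minus duodenum to 1.07 for SQLE, 1.10 for NSDHL and 0.39 for DHCR7; liver minus breast muscle to -0.28 for INSIG1; brain minus duodenum to -0.30 for FDPS and -0.07 for LSS. At day 0 alone, liver minus brain turned to -1.85 for NSDHL, liver minus duodenum to -0.30 for FDPS and -0.60 for LSS, and liver minus breast muscle to -0.72 for SQLE and -0.53 for DHCR7. Brain minus duodenum turned to 1.41 for INSIG1, brain minus breast muscle to 1.13 for FDPS and 2.12 for INSIG1, and duodenum minus breast muscle to -0.75 for HMGCS1 and 0.72 for INSIG1. Calls of these tissue differences were lost with the sign kept in 25 of 984 alternative runs and gained in 16. The losses included 9 of 23 alternatives for liver minus brain of FDPS and 5 of 23 for its liver minus duodenum. Liver minus duodenum of DHCR7 lost its call in 3 of 23. The cause of the other changes was not tested.

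Within a tissue, same-numbered day 7 and day 0 pools did not deviate together (correlations of -0.439 to 0.377). Same-numbered pools of different tissues at 1 age were not compared, so whether they came from the same chicks was not tested. With the replicate block 2942 probe sets were called in liver, 71 in brain, 5876 in duodenum and 7039 in breast muscle, and the counts for the 8 genes and other pathway genes were as without it. The added 28.36 lowers the size of changes at dim signals. For SQLE in liver the change was 6.06 with it and 6.41 with 1 added.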
